A study of Mus musculus with 48 samples.

Results

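The carboxylesterase genes of mouse liver were taken as every row whose symbol starts with Ces followed by a digit. There were 16 such genes of 11275 in the table of frozen (FROZ) liver and 13 of 6673 in the table of formalin-fixed paraffin-embedded (FFPE) liver, and the 13 are all among the 16. Ces1e, Ces2g and Ces4a were listed in FROZ only. The tissue came from 24 male B6C3F1 mice aged 4 weeks, which drank dichloroacetic acid (DCA) for 6 days at 0, 198, 313 or 427 mg/kg-d. Each dose group held 6 animals, the 0 mg/kg-d group served as control, and each animal gave 1 FROZ library (extracted RNA) and 1 FFPE library (lysed sections). The paper gives the left lateral caudate and right medial lobes for FROZ, and the left lateral and right medial lobes for FFPE. Transcripts were counted with TempO-Seq, in which pairs of detector oligos anneal next to each other on a target RNA, are ligated and are then amplified and sequenced. Values are log2(CPM + 1), where CPM is a gene's reads scaled to 1 common library total over the genes kept in each table.

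Carboxylesterases are serine hydrolases, most of them held in the endoplasmic reticulum of the hepatocyte, that cleave esters, amides and thioesters of drugs, environmental chemicals and lipids. The mouse genome carries many more copies than the human genome, arranged in tandem. Some members also act on stored fat: Ces1d, long known as triacylglycerol hydrolase, and its relative Ces1f take part in moving triglyceride into secreted lipoproteins, while Ces1c is secreted and gives mouse plasma its high esterase activity. DCA is a by-product of drinking water disinfection that inhibits pyruvate dehydrogenase kinase and causes liver tumours in mice.

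In the RefSeq annotation of GRCm38, the build the authors used under the name mm10, all 20 genes with such symbols lie on chromosome 8. A first block of 9 genes, chr8:93020214-93535879, holds the Ces1 genes and Ces5a on the minus strand, and 6 of these were listed in FROZ. A second block of 11 genes, chr8:104734003-105150109, holds the Ces2, Ces3 and Ces4a genes on the plus strand, and 10 of these were listed. Ces1a, Ces1h, Ces5a and Ces2h were in neither table.

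Tandem copies share sequence, which bears on how their reads can be told apart. In GENCODE M21 transcripts of GRCm38, Ces2c shared 734 of its 2248 different windows of 50 bases, the length of a read, with the transcribed pseudogene Ces2d-ps, and 99 with Ces2b. Ces3a and Ces3b shared 695 windows, 25.6% of those of Ces3a, and Ces1b shared 190 with Ces1c. The longest stretch common to Ces2b, Ces2c and Ces2d-ps inside 1 coding exon of Ces2c ran over 95 bases. It is printed here for Ces2c, with the same stretch of the neighbours Ces2a and Ces2e, in which 16 and 12 bases differ and are set in capitals. The positions of the detector oligos were not used here, so it is not known whether any of them falls in this stretch.
Ces2c (chr8:104852583-104852677, plus strand): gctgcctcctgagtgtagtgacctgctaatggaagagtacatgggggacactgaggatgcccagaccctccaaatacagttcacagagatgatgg
Ces2a (chr8:104739609-104739703, plus strand): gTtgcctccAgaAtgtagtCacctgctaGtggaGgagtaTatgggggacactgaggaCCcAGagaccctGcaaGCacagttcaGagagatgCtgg
Ces2e (chr8:104931844-104931938, plus strand): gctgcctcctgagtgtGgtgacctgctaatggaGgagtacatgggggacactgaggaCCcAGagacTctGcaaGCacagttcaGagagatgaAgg

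The reads behind the values were recovered from the step between low values in each library, since most genes hold a whole number of reads. Between 6690000 and 9840000 reads fell on the listed genes in FROZ and between 1830000 and 6010000 in FFPE, and 96.7 to 97.2% and 95.0 to 96.9% of low values came out within 0.05 of a whole read. In FROZ, no Ces gene was at 0 in any library, and medians over the 24 libraries ran from 7 reads for Ces1b and 15 for Ces4a to 5101 for Ces3b and 26910 for Ces1c, whose probe was among those attenuated in the assay. In FFPE, Ces1b was at 0 (under 0.5 of a read, since division can leave fractions) in 6 of 24 libraries, Ces2f and Ces2c each in 7, Ces1d in 3, Ces2b and Ces2d-ps each in 2 and Ces2e in 1. Other FFPE libraries held up to 212 reads of Ces1b and 200 of Ces2f. A count of 0 allows up to 3 reads, which are worth 0.499 to 1.64 CPM in FFPE. Limits of this kind cover counting error only.

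Across FROZ liver, most of the family fell with DCA and a minority rose. At 427 mg/kg-d, 9 of the 16 genes fell and 3 rose at a false discovery rate (FDR) under 0.05 in limma, with p-values adjusted over all genes of the table. Over all FROZ genes 30.1% were called at this dose, 7.33% lower and 22.7% higher. The median log2 fold change of the 16 genes was -0.60, against 0.10 over all genes. At 313 mg/kg-d the counts were also 9 lower and 3 higher, with 26.7% of all genes called, 6.15% lower and 20.5% higher, and the medians were -0.52 for the 16 genes and 0.11 for all. At 198 mg/kg-d none was called, where 1.56% of all genes were. At an unadjusted p under 0.05 there were 8 of the 16 genes, and 17.1% of all genes. Median ratio scaling, which takes out the shift of all genes, left 23.4% of the calls over all genes higher at 198, 48.6% at 313 and 50% at 427 mg/kg-d, where CPM scaling gave 71.6, 77 and 75.6%. It turned no call of a Ces gene around. Of the 3 rises at 427 mg/kg-d, those of Ces1f (limma FDR 0.0813) and Ces1g (FDR 0.0688) missed the threshold under this scaling. Ces2d-ps, which rose, and Ces2b, which fell, are not measured apart from Ces2c.

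Differentially expressed genes (DEGs) were taken at an FDR under 0.05 and a change of more than 2-fold. There were 6 among the Ces genes at 427 mg/kg-d, Ces1c, Ces2a, Ces3a, Ces3b and Ces4a lower and Ces2d-ps higher, with 3.5% of all genes called by this rule. At 313 mg/kg-d there were also 6, Ces1c, Ces2a, Ces3a and Ces4a lower and Ces2c and Ces2d-ps higher, with 2.31% of all genes called. Ces2c and Ces2d-ps are not separate measurements, and their sum was 1 DEG at this dose (1.41 ± 0.24, limma FDR 9.81e-05). The 6 animals did not overlap with the 6 controls for 9 genes at 427 mg/kg-d, where this held for 14.7% of all genes, and for 5 genes at 313 mg/kg-d, where it held for 11.5%. The 9 include Ces2d-ps as assigned, which overlapped with the controls once summed with Ces2c. Fold changes are on the log2(CPM + 1) scale, which understates those of Ces1b, Ces2f and Ces4a, with control medians of 1.55, 3.53 and 4.4 CPM.

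**Figure D1:**
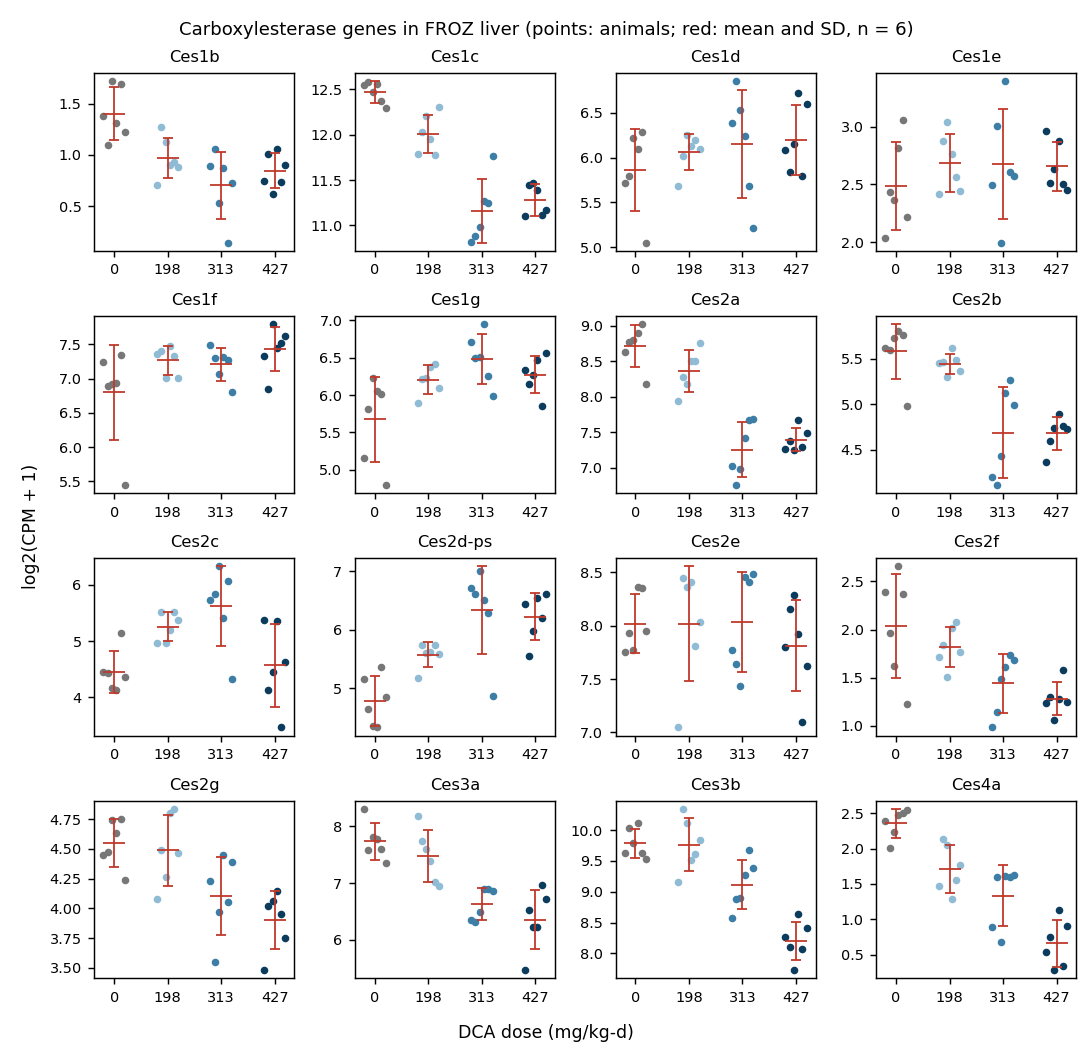
Level of the 16 carboxylesterase genes in FROZ liver, as log2(CPM + 1) on the vertical axes (a range of its own per gene), against DCA dose in mg/kg-d; points are animals and red marks the mean and SD of 6. Ces3b and Ces4a stepped down up to 427 mg/kg-d, Ces1c and Ces2a were lowest at 313 and 427 mg/kg-d, and Ces2d-ps was higher at both.

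Ces3b and Ces4a, neighbours at the end of the second block, had the largest falls at 427 mg/kg-d and were still falling between the upper doses. Ces3b, a carboxylesterase of liver microsomes, ran from 9.53 through a median of 9.71 to 10.11 in controls, 9.16 through 9.73 to 10.35 at 198, 8.58 through 9.09 to 9.68 at 313 and 7.73 through 8.19 to 8.63 at 427 mg/kg-d. All 6 animals at 427 mg/kg-d lay below every control, while the 198 mg/kg-d animals lay around them. Its log2 fold change was -0.67 ± 0.18 (SE, n = 6 per group, limma FDR 0.00799) at 313 and -1.58 ± 0.18 (FDR 2.19e-07) at 427 mg/kg-d, which left 33.4% of the control level. Between 313 and 427 mg/kg-d alone it fell by 0.91 ± 0.18 on the log2 scale (limma FDR 0.00628).

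Ces4a, a member with few known substrates, had 24 to 46 reads per control library and 2 to 10 at 427 mg/kg-d. Its levels ran from 2.01 through 2.43 to 2.55 in controls, 1.29 through 1.66 to 2.14 at 198, 0.68 through 1.60 to 1.62 at 313 and 0.28 through 0.64 to 1.14 at 427 mg/kg-d. The upper 2 dose groups lay wholly below the controls, and the 198 mg/kg-d group overlapped with them. The log2 fold changes were -0.65 ± 0.19 (limma FDR 0.0685), -1.03 ± 0.19 (FDR 0.000183) and -1.70 ± 0.19 (FDR 8.68e-08) from the lowest dose to the highest. The step from 313 to 427 mg/kg-d, -0.68 ± 0.19, had an FDR of 0.0444 in limma. That step missed the threshold under median ratio scaling (FDR 0.0506) and without any 1 of 12 animals (FDR up to 0.112, without animal 99).

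Ces3a, the close copy of Ces3b, fell to a like extent but with most of its fall by 313 mg/kg-d. It ran from 7.35 through 7.69 to 8.31 in controls, 6.31 through 6.67 to 6.89 at 313 and 5.47 through 6.38 to 6.96 at 427 mg/kg-d. Both dose groups lay below all controls, and their ranges overlapped with each other. The log2 fold changes were -1.11 ± 0.21 (limma FDR 0.000279) and -1.38 ± 0.21 (FDR 1.15e-05), and the step between these doses, -0.27 ± 0.21, was not called (FDR 0.525). Because a share of the transcript is identical to Ces3b, reads of these copies could be divided between them where an oligo lies in a shared stretch; both fell, and their divided reads were not tested.

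Ces1c and Ces2a fell earlier in the dose range, between 198 and 313 mg/kg-d, and no further. Ces1c, the plasma esterase, ran from 12.29 through 12.51 to 12.58 in controls, 11.78 through 11.99 to 12.30 at 198, 10.82 through 11.12 to 11.76 at 313 and 11.10 through 11.28 to 11.47 at 427 mg/kg-d. The upper 2 groups lay below all controls, and only the highest 198 mg/kg-d animal reached the lowest control. Its log2 fold change was -0.47 ± 0.13 at 198 mg/kg-d (limma FDR 0.0653), -1.31 ± 0.13 at 313 (FDR 6.01e-08) and -1.19 ± 0.13 at 427 mg/kg-d (FDR 1.05e-07), the last being 43.8% of control. From 198 to 313 mg/kg-d it fell by 0.85 ± 0.13 on the log2 scale (limma FDR 9.57e-05), and from 313 to 427 mg/kg-d it differed by 0.12 ± 0.13 (FDR 0.681). At 198 mg/kg-d the call of Ces1c changed with the processing: the FDR was 0.0442 under median ratio scaling, 0.0438 with a filter at a mean of 5 CPM and 0.0312 without animal 78.

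Ces2a, the first gene of the second block, ran from 8.18 through 8.78 to 9.03 in controls and 7.94 through 8.39 to 8.76 at 198 mg/kg-d, groups that overlapped. It then ran from 6.76 through 7.22 to 7.69 at 313 and 7.26 through 7.33 to 7.67 at 427 mg/kg-d, all below the controls. The log2 fold changes were -1.46 ± 0.15 (limma FDR 1.24e-07) and -1.32 ± 0.15 (FDR 2.50e-07) at these doses. The step from 198 to 313 mg/kg-d was -1.10 ± 0.15 (limma FDR 2.63e-05).

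Over all 16 genes, 6 were called between 198 and 313 mg/kg-d, where 11.7% of all FROZ genes were called. Ces1c, Ces2a, Ces2b, Ces3a and Ces3b were lower, with 3.65% of all genes called lower, and Ces2d-ps was higher. Between 313 and 427 mg/kg-d, 3.07% of all genes were called, 1.34% lower, and Ces2c, Ces3b and Ces4a made up the 3 Ces genes called, all lower. Without any 1 of animals 74, 77, 98, 99, 101 and 102 the last count was 1, which was Ces3b. The higher call of Ces2d-ps between 198 and 313 mg/kg-d (FDR 0.0459) missed the threshold under median ratio scaling (FDR 0.0666), with the untrended prior (FDR 0.0593) and without any 1 of 13 animals (FDR up to 0.125, without animal 75). The lower call of Ces3b (FDR 0.0204) missed it without animal 50, 73 or 74 (FDR 0.0537 to 0.06).

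**Figure D2:**
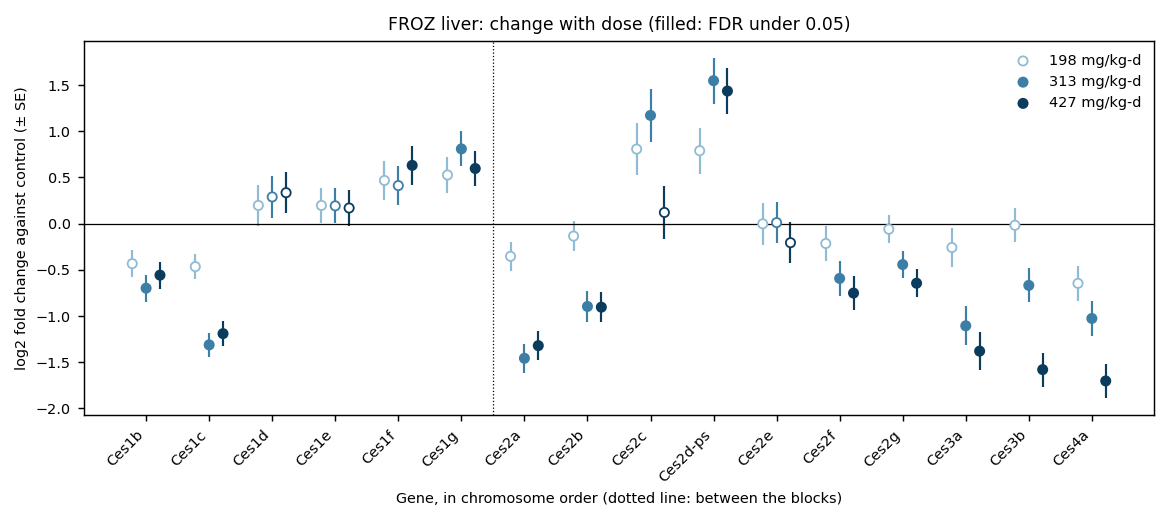
Log2 fold change against control (± SE, n = 6 per group) for the 16 genes in FROZ liver, in chromosome order, at 198, 313 and 427 mg/kg-d; filled points have an FDR under 0.05 in limma. Ces1b and Ces1c were lower while Ces1f and Ces1g in the same block were higher at 427 mg/kg-d, and Ces2c and Ces2d-ps lay above 0 between Ces2b and Ces2f, which lay below it.

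Among the remaining genes that fell, Ces2b, Ces2f and Ces2g sit in the second block and Ces1b in the first. As assigned, Ces2b ran from 4.98 through 5.67 to 5.80 in controls and 4.36 through 4.73 to 4.89 at 427 mg/kg-d, below every control, a log2 fold change of -0.90 ± 0.17 (limma FDR 0.000123). Its recovered reads were whole in 11 of 24 FROZ libraries, so it is not measured apart from Ces2c and Ces2d-ps. Together the 3 copies held 706 to 1257 reads in controls and 765 to 1347 at 427 mg/kg-d, ranges that overlapped. Ces2f, at 12 to 50 reads per control library, changed by -0.59 ± 0.19 (FDR 0.0204) at 313 and -0.75 ± 0.19 (FDR 0.00314) at 427 mg/kg-d. Ces2g ran from 4.24 through 4.55 to 4.75 in controls and 3.48 through 3.99 to 4.15 at 427 mg/kg-d, below every control, at -0.65 ± 0.15 (limma FDR 0.00161). The calls at 313 mg/kg-d of Ces2f and of Ces2g (-0.44 ± 0.15, FDR 0.0287) were each lost without any 1 of 5 animals, with an FDR of up to 0.0648 without animal 6 and 0.0958 without animal 74. Ces1b, with 9 to 22 reads in control libraries and 1 to 9 at the upper 2 doses, was at -0.70 ± 0.15 (FDR 0.000764) and -0.56 ± 0.15 (FDR 0.00437).

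The genes that rose in the first block were Ces1g, a hydrolase that acts on liver triglyceride and on chylomicron lipid in the gut, and Ces1f. Ces1g ran from 4.80 through 5.91 to 6.22 in controls, 5.89 through 6.22 to 6.42 at 198, 5.99 through 6.50 to 6.95 at 313 and 5.86 through 6.30 to 6.56 at 427 mg/kg-d. Every group overlapped with the controls, among which animals 3 and 8 were lowest at 5.15 and 4.80. The log2 fold changes were 0.53 ± 0.19 (limma FDR 0.143), 0.81 ± 0.19 (FDR 0.00235) and 0.60 ± 0.19 (FDR 0.0178). Ces1f ran from 5.45 through 6.92 to 7.35 in controls and 6.85 through 7.49 to 7.80 at 427 mg/kg-d, overlapping, at 0.63 ± 0.21 (limma FDR 0.0241).

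Control animal 8 bore on these 2 calls. Its FROZ library held 385 reads of Ces1f, where the other controls lay between 6.90 and 7.35 on the log2 scale and it lay at 5.45. Without this animal the log2 fold changes at 427 mg/kg-d were 0.36 for Ces1f (limma FDR 0.0564) and 0.42 for Ces1g (FDR 0.0618), and the count of Ces genes called was 10. The call of Ces1f was also lost without animal 99 (FDR 0.0623) or 102 (FDR 0.0515), and that of Ces1g without animal 3 (FDR 0.0554). Under median ratio scaling neither passed at this dose (FDR 0.0813 and 0.0688), while Ces1g at 313 mg/kg-d passed under every alternative tried. In FFPE the library of animal 8 was again the lowest control for Ces1f, at 7.11, and for Ces1g, at 4.35.

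Ces1d, Ces1e and Ces2e did not pass the test at any dose in FROZ. Ces1d, the triacylglycerol hydrolase, had log2 fold changes of 0.20 ± 0.22, 0.29 ± 0.22 and 0.34 ± 0.22 with rising dose (limma FDR 0.706, 0.365 and 0.276). Ces1e, or egasyn, which holds beta-glucuronidase in the endoplasmic reticulum, had 20 to 72 reads per library and log2 fold changes between 0.17 and 0.20 (limma FDR 0.498 to 0.647). Ces2e varied within groups, from 7.05 to 8.45 at 198 mg/kg-d, and its log2 fold change at 427 mg/kg-d was -0.21 ± 0.22 (limma FDR 0.533).

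Ces2c, known as a medium-chain acylcarnitine hydrolase, and the pseudogene Ces2d-ps both rose at 313 mg/kg-d, while at the highest dose Ces2c did not pass. Ces2d-ps ran from 4.33 through 4.75 to 5.36 in controls, 5.17 through 5.62 to 5.74 at 198, 4.88 through 6.56 to 7.01 at 313 and 5.55 through 6.33 to 6.61 at 427 mg/kg-d. As assigned, its animals at 427 mg/kg-d all lay above the controls, while at 313 mg/kg-d animal 78 lay among them. The log2 fold changes were 0.79 ± 0.25 (limma FDR 0.0932), 1.55 ± 0.25 (FDR 4.12e-05) and 1.44 ± 0.25 (FDR 6.36e-05). Ces2c was at 1.17 ± 0.28 (limma FDR 0.00304) at 313 mg/kg-d and at 0.12 ± 0.28 (FDR 0.79) at 427 mg/kg-d, a step of -1.05 ± 0.28 between these doses (FDR 0.0411). That step missed the threshold with the untrended prior (FDR 0.0549) and without any 1 of 8 animals (FDR up to 0.11, without animal 101).

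How reads were divided between these copies moved with the Ces2c result. Recovered reads were whole in 4 of 24 FROZ libraries for Ces2c and in 5 for Ces2d-ps, but the sum of Ces2b, Ces2c and Ces2d-ps was whole in 21, within 0.05 of a read. In 9 FROZ and 14 FFPE libraries the ratio of Ces2c to Ces2d-ps was 0.861, within 0.005, and in no library was it higher; it was lower in 15 FROZ and 3 FFPE libraries, and the others had Ces2c under 0.5 of a read. Ces2c took 37.4 to 46.3% of the reads of both genes in FROZ controls, 31.7 to 46.3% at 313 and 12.2 to 32% at 427 mg/kg-d. The levels of these genes are therefore not separate measurements, and their CPM were also summed, a choice made after seeing these values. The sum had log2 fold changes of 0.81 ± 0.24 (limma FDR 0.0809), 1.41 ± 0.24 (FDR 9.81e-05) and 1.02 ± 0.24 (FDR 0.0020) with rising dose. Its step from 313 to 427 mg/kg-d was -0.39 ± 0.24 (limma FDR 0.423), which did not pass. The sum ran from 5.20 through 5.56 to 6.24 in controls and 5.99 through 6.66 to 7.06 at 427 mg/kg-d, so that 1 animal at this dose lay within the control range.

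In reads, Ces2c and Ces2d-ps together held 335 to 734 in the control libraries of FROZ and 513 to 829 at 198 mg/kg-d. Animal 78 held 365 at 313 mg/kg-d, while the other animals of that group held 958 to 1386, and at 427 mg/kg-d the range was 558 to 1122. Ces2b, assigned 276 to 523 reads in controls and 173 to 240 at 427 mg/kg-d, moved the other way. Without animal 78, Ces2d-ps also passed the test at 198 mg/kg-d (log2 fold change 0.79, limma FDR 0.024), with Ces1c the second of 2 genes.

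**Figure D3:**
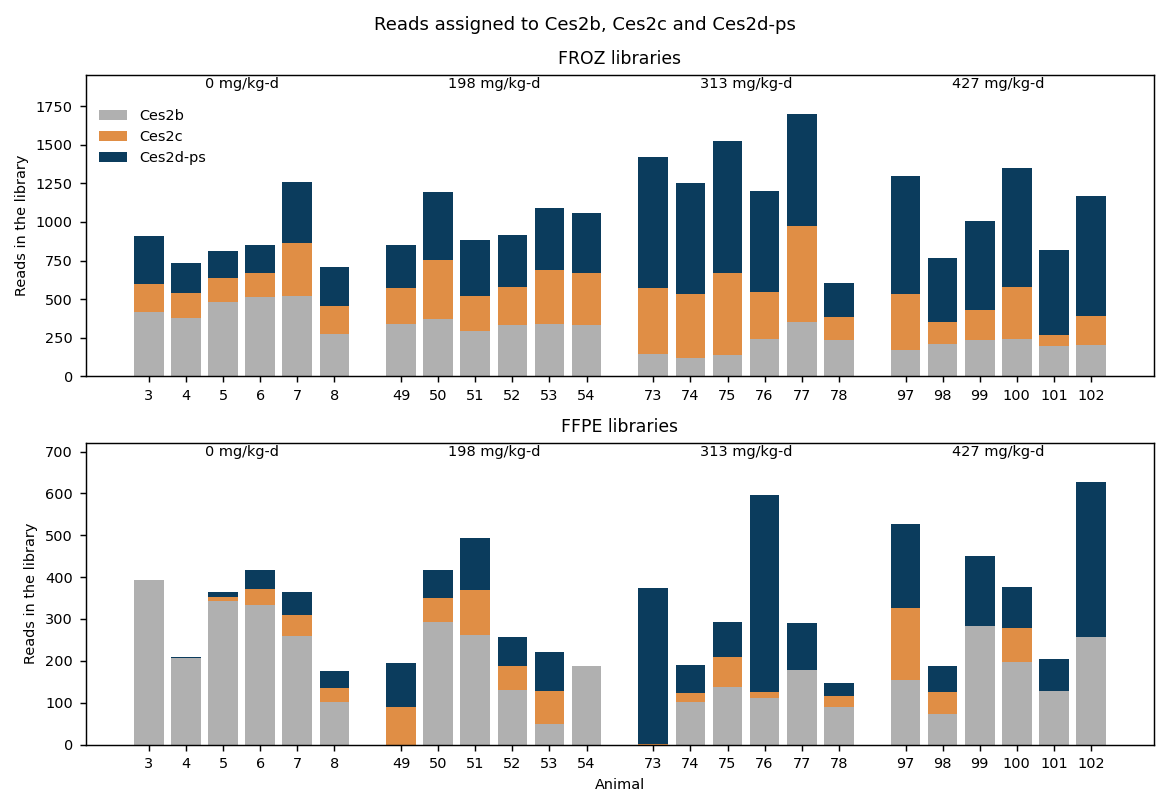
Reads assigned to Ces2b, Ces2c and Ces2d-ps in each library (stacked bars, animals on the horizontal axis, grouped by dose in mg/kg-d), FROZ above and FFPE below. In FROZ the Ces2d-ps segment is the largest in the animals given DCA, at all 3 doses, other than 49 and 78. In those and in the controls the Ces2b segment is the largest. In FFPE 7 libraries have Ces2c under 0.5 of a read.

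The sequence upstream of 4 of the genes that fell most is shown for reference, as RefSeq places it on GRCm38.p6 (250 bases before the transcript start, 228 for Ces3b, up to the start of the annotated gene; 5′ to 3′ on the gene's strand). Motifs of 6 liver regulators or promoter elements were searched on both strands of the upstream 250 bases and are in capitals where found. The HNF1 motif GTTAAT, in 6.43% of 32851 RefSeq promoters, was found in Ces3b. The TATA box TATAAA, in 12.4% of promoters, was also found in Ces3b. The nuclear receptor motif AGGTCA, in 14% of promoters, was found in Ces2a and, on the other strand, in Ces4a. The STAT motif TTCNNNGAA (7.02% of promoters), and apart from it the FOXA motif TGTTTAC (3.17%) and the C/EBP motif TTGCGNAA (0.67%), were found in none of the 4, and Ces1c held no motif searched. A match of letters is a description and not a binding site. Promoters were not listed for Ces1d, Ces1f, Ces2b, Ces2d-ps and Ces3a.
Ces1c (chr8:93131284-93131533, minus strand): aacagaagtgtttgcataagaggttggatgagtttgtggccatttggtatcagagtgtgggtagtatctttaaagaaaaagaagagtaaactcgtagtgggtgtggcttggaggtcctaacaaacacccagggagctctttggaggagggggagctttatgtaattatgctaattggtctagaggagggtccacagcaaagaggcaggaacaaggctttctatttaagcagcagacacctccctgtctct
Ces2a (chr8:104733753-104734002, plus strand): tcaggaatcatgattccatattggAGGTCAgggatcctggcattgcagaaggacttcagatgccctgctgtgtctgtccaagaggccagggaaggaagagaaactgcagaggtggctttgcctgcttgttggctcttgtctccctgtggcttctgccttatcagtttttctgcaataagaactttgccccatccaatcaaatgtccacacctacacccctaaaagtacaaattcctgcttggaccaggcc
Ces3b (chr8:105083505-105083732, plus strand): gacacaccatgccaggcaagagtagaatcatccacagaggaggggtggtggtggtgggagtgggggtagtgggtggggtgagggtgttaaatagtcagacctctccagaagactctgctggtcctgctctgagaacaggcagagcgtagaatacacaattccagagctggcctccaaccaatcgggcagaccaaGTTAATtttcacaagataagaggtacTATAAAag
Ces4a (chr8:105131550-105131799, plus strand): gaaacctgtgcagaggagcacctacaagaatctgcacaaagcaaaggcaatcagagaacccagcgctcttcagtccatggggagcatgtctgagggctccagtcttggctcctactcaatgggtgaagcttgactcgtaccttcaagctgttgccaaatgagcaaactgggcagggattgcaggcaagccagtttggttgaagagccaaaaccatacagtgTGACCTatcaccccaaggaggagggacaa

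In FFPE liver few of the 13 genes passed the test, as few genes did overall. None was called at 198 mg/kg-d, where 0.0599% of all FFPE genes were. At an unadjusted p under 0.05 there were 2 of the 13 genes, and 11.8% of all genes. At 313 mg/kg-d only Ces1g was called, higher and by over 2-fold, with 1.08% of all genes called and 0.809% as DEGs. At 427 mg/kg-d Ces1f was called higher, as a DEG, and Ces3a lower, with 2.41% of all genes called and 1.81% as DEGs. Of all calls at this dose 64% were higher, and 52.1% under median ratio scaling, which moved the median of all genes from 0.18 to 0.08. Levels in FFPE and FROZ were scaled separately and are not compared. There were 4 genes whose 6 values did not overlap with the controls at 427 mg/kg-d, Ces2a, Ces3a and Ces3b below and Ces2d-ps above, where this held for 4.48% of all genes. Summed with Ces2c, Ces2d-ps had 1 animal within the control range here too, which ran from 0 to 4.25 against 4.24 to 6.18, and the log2 difference of the sum was 2.72 ± 0.94 (limma FDR 0.176).

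Ces1f in FFPE ran from 7.11 through 7.62 to 8.44 in controls, 7.24 through 8.07 to 8.26 at 198, 7.58 through 8.44 to 8.59 at 313 and 8.31 through 8.79 to 9.11 at 427 mg/kg-d. Only the highest control reached the range of the 427 mg/kg-d group. The log2 fold change was 1.07 ± 0.23 (limma FDR 0.00460), and it passed under every alternative tried, including without animal 8. Ces3a ran from 7.84 through 8.51 to 8.63 in controls and 7.11 through 7.45 to 7.65 at 427 mg/kg-d, a change of -0.93 ± 0.25 (limma FDR 0.0323). Without animal 3, 4, 5, 6, 97, 98, 99 or 102 its FDR was 0.0523 to 0.0961, and 0.15 with a prior that did not follow the mean level. Ces1g at 313 mg/kg-d, 1.47 ± 0.38 (limma FDR 0.0484), was lost without any 1 of 16 animals, with an FDR of 0.154 without animal 8.

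The other FFPE values with large changes did not pass as reported, and some passed under an alternative. Ces3b ran from 7.14 through 8.00 to 9.55 in controls and 5.90 through 6.56 to 7.05 at 427 mg/kg-d, a log2 difference of -1.72 ± 0.49 (limma FDR 0.0543). It passed under median ratio scaling (FDR 0.0246), with array weights and without animal 7, 50, 53, 73, 74 or 76 (FDR 0.00937 to 0.0483). With array weights Ces1c, Ces2a and Ces2d-ps passed too (limma FDR 0.00395, 0.0104 and 0.00534). The share of all genes called with array weights was not taken. Ces1c was at -0.70 ± 0.21 (limma FDR 0.0776, and 0.0166 under median ratio scaling, 0.0394 without animal 53 and 0.0321 without animal 99) and Ces2a at -1.34 ± 0.44 (FDR 0.138). Ces2d-ps was at 2.83 ± 0.93 (limma FDR 0.133), where control libraries held 0 to 56.5 assigned reads and 427 mg/kg-d libraries 61.8 to 369. For Ces1b, Ces1d, Ces2c and Ces2f the SE in FFPE was between 1.02 and 1.22, against 0.15 to 0.28 in FROZ.

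**Figure D4:**
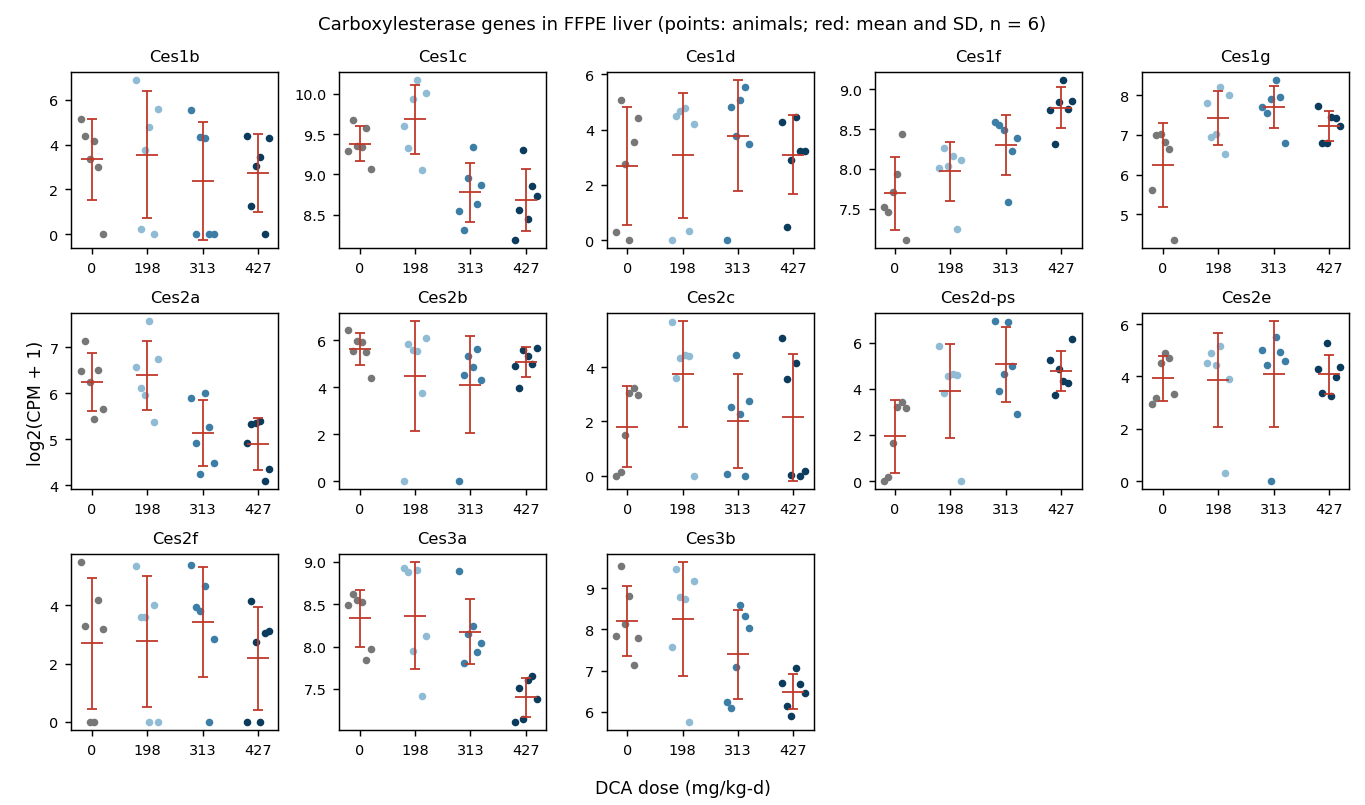
Level of the 13 genes listed in FFPE liver, as log2(CPM + 1), against DCA dose in mg/kg-d; points are animals and red marks the mean and SD of 6. Ces1c, Ces1f, Ces1g, Ces2a, Ces3a and Ces3b have no library at 0, while Ces1b, Ces2c and Ces2f have libraries at 0 in several dose groups.

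Whether the response to DCA differed between the preservations was tested on the FFPE minus FROZ difference within each animal, with CPM rescaled over the 6591 genes in both tables. Preservation cannot be told apart here from the lobes sampled or from extracted RNA against lysed sections. No Ces gene was called at 198, 313 or 427 mg/kg-d, where 0.0303%, 0% and 0.0303% of all genes were called. An unadjusted p under 0.05 was found for 1, 2 and 0 of the 13 Ces genes, where it was found for 11.4%, 7.45% and 2.23% of all genes. The log2 fold change of Ces3a at 313 mg/kg-d was -0.16 in FFPE and -1.11 in FROZ, a smaller fall in FFPE. The difference after rescaling was 0.94 ± 0.29 (limma p 0.00346, FDR 0.504). For Ces1c at 313 mg/kg-d the changes were -0.61 in FFPE and -1.31 in FROZ, with a difference of 0.70 ± 0.29 (limma p 0.0231, FDR 0.627). At 198 mg/kg-d Ces1c was at 0.30 in FFPE and -0.47 in FROZ, neither called, with a difference of 0.77 ± 0.29 (limma p 0.0136, FDR 0.369). At 427 mg/kg-d the differences ran from -0.15 ± 0.47 for Ces3b to 1.39 ± 0.85 for Ces2d-ps. For the 7 genes with FFPE libraries at 0 the SE was 0.78 to 1.28, so that a 2-fold difference lay within 2 SE of 0.

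**Figure D5:**
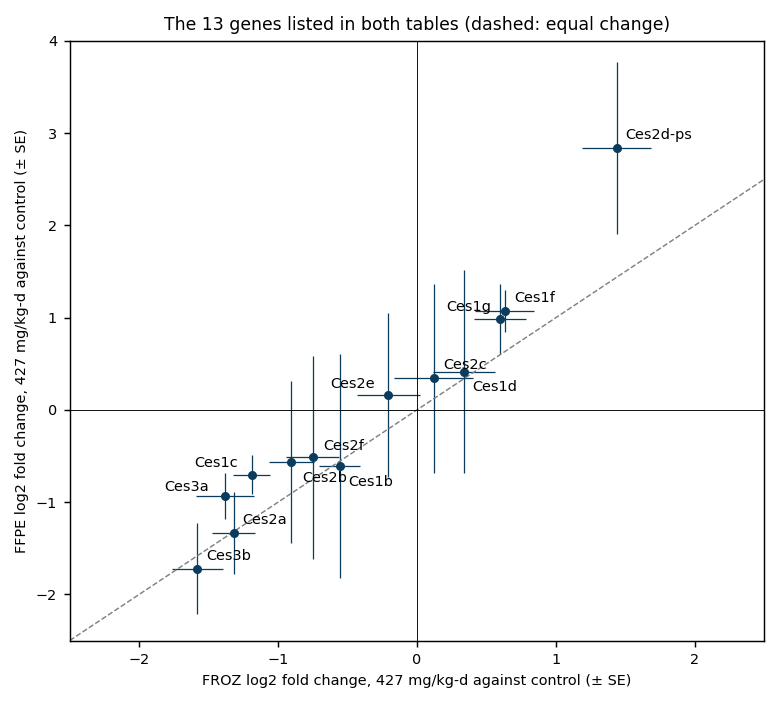
Log2 fold change at 427 mg/kg-d against control in FFPE (vertical) and FROZ (horizontal) for the 13 genes in both tables; bars are SE, n = 6 per group, and the dashed line marks equal change. Ces1f and Ces1g lie to the upper right, Ces1c, Ces2a, Ces3a and Ces3b to the lower left, and Ces2d-ps has the highest value in both; the values share animals.

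Genes around the family were taken from 3 fixed lists. Of 25 other esterases and lipid hydrolases in FROZ, 10 rose and 3 fell at 427 mg/kg-d, with a median log2 fold change of 0.20, where 22.7% of all genes were called higher, 7.33% lower and 3.5% as DEGs. Its 4 DEGs all rose: Nceh1, which hydrolyses cholesteryl and ether lipids (2.40 ± 0.17, limma FDR 2.81e-11), the monoglyceride lipases Mgll (1.60 ± 0.15) and Abhd6 (1.58 ± 0.16), and Pnpla3 (1.11 ± 0.36, FDR 0.0214). Of 9 genes of lipoprotein assembly and triglyceride synthesis, 4 rose and 2 fell with no DEG. Of 12 xenobiotic and lipid receptors and their shared targets, 6 rose and none fell, and the 1 DEG was Nfe2l2, the regulator of antioxidant genes (1.54 ± 0.16, limma FDR 3.10e-08). The 6 were all receptors or regulators. At 313 mg/kg-d the cytochrome P450 target Cyp2c29 was a DEG, lower (-1.04 ± 0.19, limma FDR 0.000169), where 2.31% of all genes were DEGs. None of the cytochrome P450 targets in this list was called at 427 mg/kg-d with CPM scaling, with log2 fold changes of -0.65 to -0.20. Under median ratio scaling the counts higher and lower were 9 and 3, 2 and 3, and 4 and 1 in these lists, with list medians of 0.05, 0.10 and 0.09. In FFPE at this dose, 1 gene of 19, 9 and 11 in each list was called, all higher; those past 2-fold were Abhd6 (2.24 ± 0.38) and the xenobiotic receptor Nr1i3 (1.42 ± 0.34).

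As a description, the genes whose FROZ levels over all 24 libraries were closest to those of Ces2d-ps by Pearson's r were Dlst (0.909), Psmd5 (0.898), Ran (0.897), Ftl1 (0.894) and Ranbp9 (0.892). For Ces4a they were C2 (0.888), Cfhr2 (0.885), Gm4788 (0.883), C9 (0.883) and Ugt2b38 (0.880), of which C2 and C9 are complement components. The libraries share the doses, so any gene with a like dose response scores high.

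The label of liver was checked with marker genes. In FROZ, the 5 listed hepatocyte markers summed to 31460 to 35420 CPM in controls and 25730 to 29640 CPM at 427 mg/kg-d, where 1 of them was called, lower. The 6 Kupffer cell markers summed to 197 to 270 CPM in controls and 121 to 185 CPM at 427 mg/kg-d, and 4 of them fell. Of 5 sinusoidal endothelial and 4 stellate cell markers 1 each fell, and of 2 cholangiocyte, 2 lymphocyte and 3 pancreatic acinar markers none was called. The endothelial markers summed to 118.3 to 138.1 CPM in controls. Their sums at 313 mg/kg-d (93.71 to 116.8 CPM) and 427 mg/kg-d (92.32 to 111.8 CPM) lay below every control. In FFPE, 2 of 5 hepatocyte markers fell and no other marker was called, but only 3 of 6 Kupffer cell markers and 0 of 3 lymphocyte markers were listed. Those Kupffer cell markers summed to 204.7 to 405.5 CPM in FFPE controls and 140.7 to 192.7 CPM at 427 mg/kg-d, below every control. The hepatocyte sum was also lower, at 39300 to 52510 and 26410 to 31610 CPM. Sums of the other cell types listed in FFPE overlapped with the FFPE controls at this dose. In bulk liver, fewer cells of a type and less RNA per cell cannot be told apart, and the part of cell makeup in the Ces results was not tested.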

How the data were processed

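TempO-Seq tables of 24 FROZ and 24 FFPE libraries were analysed. The deposited values are log2(CPM + 1): the authors aligned reads to mm10 with STAR (version 2.6 in the submitters' processing notes) in Partek Flow, counted genes by expectation maximization, which can divide reads between similar transcripts, removed low genes and scaled each table by itself. Each table was fitted with limma 3.58.1 (R 4.3.3, trended prior), with all 4 doses in 1 model and Benjamini-Hochberg FDR over all its genes. The Ces genes and gene lists were chosen with earlier results of these data known. Named were all Ces genes, the 5 nearest patterns of the genes with the largest called rise and fall, and up to 6 DEGs per list. Reads were recovered from the smallest CPM step of each library. FROZ and FFPE numbers mark the same animal: median r of deviations was 0.127 within an animal and -0.0228 between animals, and 22 of 24 matched their own number best. The fits were tested on simulated data. Alternatives were a 0.1 CPM offset, median ratio scaling, an untrended prior, array weights, a mean of at least 5 CPM, and leaving out each animal.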

Additional observations from a re-analysis of the deposited data

Results flagged for a closer look

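One library stood apart from the other 5 of its dose group by Dixon's criterion at the 95% level (the gap to the nearest animal against the range) in 5 of 64 FROZ groups and 8 of 52 FFPE groups of a Ces gene. Chance gives about 1 in 20 only for normal values in separate groups, which libraries at 0 and divided reads do not meet. The share over all genes was not taken, so no excess in Ces genes is shown. All values are log2(CPM + 1), and their causes were not tested. In FROZ controls, animal 8 was low for Ces1f (5.45, 385 reads) and Ces2b (4.98), and animal 7 was high for Ces2c (5.15). In FROZ, Ces2d-ps was low in animal 49 at 198 mg/kg-d (5.17) and in animal 78 at 313 mg/kg-d (4.88). In FFPE, Ces1f was low in animal 53 at 198 mg/kg-d (7.24) and animal 76 at 313 mg/kg-d (7.58). Animal 53 was also low for Ces2e (0.33, 1 read). The FFPE library of animal 54 at 198 mg/kg-d was at 0 for Ces2c and Ces2d-ps, that of animal 73 at 313 mg/kg-d at 0 for Ces1d and Ces2b, and that of animal 75 at 313 mg/kg-d at 0 for Ces2e.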

How the results depend on the processing

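No called Ces gene changed sign under any alternative. Counts of Ces genes called moved by more than 1.5-fold as follows. In FROZ at 198 mg/kg-d, where it was 0 as reported, it was 1 under median ratio scaling and 1 after the 5 CPM filter. In FFPE at 313 mg/kg-d, where it was 1, it was 0 with an offset of 0.1 CPM, 0 with the untrended prior and 0 with array weights. In FFPE at 427 mg/kg-d, where it was 2, it was 4 under median ratio scaling, 1 with the untrended prior and 6 with array weights. Over all genes, median ratio scaling gave 165 calls in FFPE at 427 mg/kg-d, against 161 as reported. In FROZ at 198 mg/kg-d it gave 124, against 176. Calls over all genes were not counted under the other alternatives, so the Ces counts under them do not set the family apart. Leaving out each animal gave 0 to 2 (2 without animal 78) in FROZ at 198, 10 to 12 at 313 and 10 to 12 at 427 mg/kg-d, 4 to 6 for 313 against 198 and 1 to 3 for 427 against 313 mg/kg-d. In FFPE it gave 0 at 198, 0 to 2 at 313 (2 without animal 78, 0 without any 1 of 3, 7, 8, 51, 54, 73 to 77 and 97 to 102) and 1 to 4 at 427 mg/kg-d (4 without animal 53, 1 without 3, 4, 5, 6, 97, 98 or 102). The count of response differences between FFPE and FROZ was 0 of 13 at each dose with the pairing of libraries by animal and 0 with no replicate block. Summing Ces2c and Ces2d-ps was added after seeing the data. FFPE depth, at 1830000 to 6010000 reads, and libraries at 0 limit what the FFPE tests could show. The tissue had been stored for decades. The paper reports low RNA integrity in FROZ as well as FFPE, and a smaller aligned share of TempO-Seq reads in FFPE.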
